A study of Mus musculus with 2 samples.

Results

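The genes described here are 10 transcription factors that direct retinal precursors to the amacrine and horizontal fates: *Foxn4*, *Tfap2a*, *Tfap2b*, *Prdm13*, *Onecut1*, *Onecut2*, *Onecut3*, *Lhx1*, *Prox1* and *Lhx9*. They were taken by symbol from the 32285 genes counted in the series, and their transcripts were counted per cell type and per cell in both genotypes. The data are single-cell RNA counts from mouse eye cups at E17.5, with 1 library from *Myrf* humWT/humWT mice and 1 from *Myrf* humdG/humdG mice. In mice of both genotypes the last *Myrf* exon was replaced by its human counterpart, and the humdG allele holds in addition the C-terminal frameshift variant linked to familial nanophthalmos, so the humWT library is a humanized control and not an unmodified strain. Each library pooled 3 eye cups according to the sample titles, whereas the study's methods give both eyes of 3 mice per genotype. The protocol in the labels names *Myrf* fl/fl and Rx>cre mice rather than these strains. It describes removal of the cornea, lens and optic nerve, while the methods leave the cornea in place. Each genotype is a single library without replicates, so no p-value is given for a difference between them, and the 95% intervals below reflect counting error alone.

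Amacrine cells are inhibitory interneurons of the inner retina, and horizontal cells are the interneurons that contact photoreceptors in the outer retina. Both arise from a shared set of precursors in which FOXN4 acts upstream of PTF1A, and the branch to horizontal cells then depends on ONECUT factors, PROX1 and LHX1. AP-2 factors and PRDM13 act in amacrine development. Horizontal cells are born early in the mouse and amacrine birth continues toward the end of gestation, so at E17.5 young neurons of both kinds are present beside dividing progenitors.

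The libraries held 129135207 UMIs in 17421 barcodes (humWT) and 114319529 UMIs in 19565 barcodes (humdG), where a UMI (unique molecular identifier) marks 1 captured transcript. After filtering, 16166 and 18172 cells remained, with medians of 3785 and 2625 UMIs per cell, and 86 barcode sequences occurred among the kept cells of both libraries. Cells were clustered without the 10 genes, and no one of them served as a marker. Of the cells kept, 3450 humWT and 5694 humdG cells fell into 4 named retinal classes, namely progenitors of the retina, neurogenic cells, amacrine cells and photoreceptor precursors, each name carrying the ending -like below because it rests on marker genes. The remainder included muscle-like cells (2017 humWT and 564 humdG), cartilage-like cells (1210 and 123) and other cells from around the eye. The largest class of each library was an unnamed cluster of low depth (medians 2280 and 1657 UMIs), with 3426 humWT and 7769 humdG cells.

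The amacrine-like cluster held 606 humWT and 1037 humdG cells, 17.6% (Clopper-Pearson interval 16.3% to 18.9%) and 18.2% (17.2% to 19.2%) of the cells in the named retinal classes. Its cells had medians of 5319 and 4997 UMIs. The name rests on 7 raised amacrine markers, among them *Ptf1a* (179 and 252 CPM, the summed UMIs of a class scaled to a common total) and *Gad2*, which makes GABA (284 and 265 CPM). In the same cluster 2 markers of horizontal cells and 4 of retinal ganglion cells were also raised. No horizontal-like or retinal ganglion cell-like cluster formed in this clustering. A finer clustering, run as an alternative, did give a retinal ganglion cell-like cluster of 191 humWT and 414 humdG cells. That cluster also had 3 raised amacrine markers. The amacrine-like cluster of the finer clustering still had 2 horizontal and 4 retinal ganglion cell markers raised. The amacrine-like class used here may thus hold cells of all 3 kinds. Summed over the marker list, horizontal markers stood at 155 and 178 CPM there against 7.08 and 7.87 CPM in red blood cell-like cells, and retinal ganglion cell markers at 1176 and 824 CPM against 152 and 218 CPM. No marker of either list was at 0. The part of these other cells in the levels below was not tested, except where cells were split by a gene.

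Red blood cell-like cells, which should not make these factors, served as the measure of free RNA. They numbered 506 and 258 and had medians of 4103 and 4144.5 UMIs per cell. The 10 genes together stood there at 66.8 CPM in humWT and 103 CPM in humdG, so the background of these transcripts was higher in the humdG library. *Lhx1* had 0 UMIs in red blood cell-like cells of either library, with upper limits of the exact Poisson interval at 1.63 and 3.22 CPM. Apart from *Tfap2b*, no member had a UMI in more than 6.59% of these cells in either library.

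Each of the 10 genes had the same highest class in both libraries. For 8 of the 10 the highest of the named classes was amacrine-like in each library, and for *Foxn4* and *Onecut1* it was neurogenic-like. The amacrine-like cells held 23.1% of all UMIs of the 10 genes in humWT (22.5% to 23.7%) and 27.6% in humdG (27.1% to 28.1%), although they were a small share of the cells. The plot of levels by class shows this order. For *Onecut1* in humWT the neurogenic-like and amacrine-like levels had overlapping intervals.

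**Figure D1:**
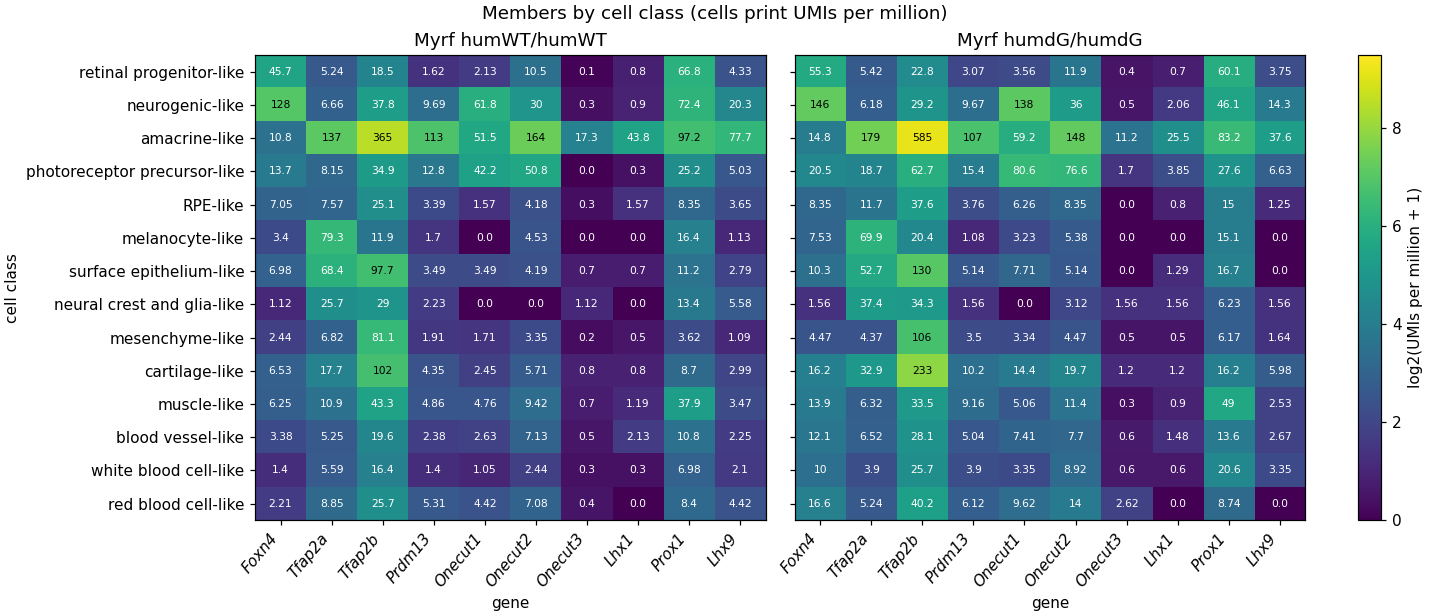
Level of each of the 10 genes (CPM of the summed UMIs of a class) in the named classes of the humWT and the humdG library, 1 library per genotype, with genes in columns and classes in rows, the CPM printed in each field and the colour showing log2(CPM + 1). Lhx1 stands highest in amacrine-like cells (43.8 CPM in humWT and 25.5 CPM in humdG), Foxn4 in neurogenic-like cells (128 and 146 CPM), and Tfap2a and Tfap2b also have levels outside the retina.

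*Foxn4* (chr5:114254164-114273807, minus strand of GRCm38, as for the positions below), a forkhead factor that makes progenitors competent for the amacrine and horizontal fates, was highest in neurogenic-like and then in progenitor-like cells. Its level was 128 CPM in humWT and 146 CPM in humdG neurogenic-like cells, which carry *Atoh7* and *Neurog2*, and 45.7 and 55.3 CPM in progenitor-like cells. In amacrine-like cells it was 10.8 (exact Poisson interval 7.90 to 14.5) and 14.8 CPM (12.1 to 17.9), from 45 and 107 UMIs. The red blood cell-like cells stood at 2.2 CPM in humWT and 16.6 CPM in humdG, so in humdG the amacrine-like level was not above the background. Between genotypes the log2 ratio of humdG to humWT was 0.20 in neurogenic-like cells (0.03 to 0.37) and 0.28 in progenitor-like cells (0.15 to 0.41). In amacrine-like cells it was 0.45, and the interval held 0 (-0.06 to 0.99). The part of the higher humdG background in the neurogenic-like and progenitor-like ratios was not tested.

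The AP-2 factors *Tfap2a* and *Tfap2b*, which act in postmitotic amacrine precursors, were the members whose ratio of humdG to humWT had an interval above 0 on the log2 scale in amacrine-like cells. *Tfap2b* (chr1:19208914-19238576, plus strand) had 1518 UMIs in humWT and 4228 in humdG, or 365 and 585 CPM, a log2 ratio of 0.68 (0.60 to 0.77). It was found in 60.7% of the humWT and 71.8% of the humdG cells, while the shares in red blood cell-like cells were 10.3% and 14.7%. With every cell thinned to 1000 UMIs, which left out 0 humWT and 2 humdG cells, the shares were 23.3% and 35.2%. The order of the genotypes for *Tfap2b* thus held at equal depth.

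*Tfap2a* (chr13:40715302-40738376, minus strand) stood at 137 and 179 CPM in amacrine-like cells, a log2 ratio of 0.39 (0.24 to 0.53), and was found in 44.2% and 48.6% of the cells. After thinning, 12.4% and 14.3% of the cells had a *Tfap2a* UMI, with intervals that overlapped. The direction of the *Tfap2a* ratio turned in a gate on markers per cell, with 31 humWT and 78 humdG cells, where it was -0.35 (-0.85 to 0.17). Both genes were also expressed outside the retina. *Tfap2a* was at 68.4 and 52.7 CPM in surface epithelium-like cells and at 79.3 and 69.9 CPM in melanocyte-like cells, and *Tfap2b* at 102 and 233 CPM in cartilage-like cells. Among the 123 humdG cartilage-like cells, 3 had UMIs of 8 members and 2 of 9, against at most 3 members in any humWT cartilage-like cell. Whether those humdG barcodes hold more than 1 cell was not tested. Both genes also act in neural crest and surface ectoderm. *Tfap2a* overlaps the genes *Gm47061*, *Gm26688* and *Gm47067* on the other strand.

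*Prdm13* (chr4:21677480-21685963, minus strand), a PR-domain factor downstream of PTF1A that favours amacrine over other fates, had an interval of the ratio that held 0. It had 468 and 773 UMIs in amacrine-like cells, 113 and 107 CPM, with a log2 ratio of -0.07 (-0.24 to 0.10). It was found in 24.9% and 25.5% of the cells. Nearly equal shares of its library total lay in this class, 49.2% in humWT and 46.3% in humdG, and progenitor-like cells held 1.62 and 3.07 CPM.

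*Lhx9*, a LIM-homeodomain factor of amacrine subsets, was the 1 member of 10 that was lower at least 2-fold in humdG amacrine-like cells. Of all 14176 genes with at least 20 UMIs in this class 7.72% were, so 1 in 10 is near the general share. It stood at 77.7 CPM in humWT (69.5 to 86.7) and 37.6 CPM in humdG (33.3 to 42.4), a log2 ratio of -1.05 (-1.28 to -0.81). It was found in 23.3% of the humWT and 14.5% of the humdG cells, while red blood cell-like cells held 10 and 0 *Lhx9* UMIs. After thinning, the shares of amacrine-like cells were 7.43% (5.47% to 9.81%) and 4.25% (3.11% to 5.67%), with intervals that overlapped slightly. The positive cells held 2.29 *Lhx9* UMIs each in humWT and 1.81 in humdG at median depths of 7566 and 8792 UMIs. No single cell carried the level, since the cell with the most held 4.33% and 3.31% of the UMIs.

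Of the ONECUT factors, cut-homeodomain proteins needed for horizontal cells, *Onecut1* also had an interval that held 0 in amacrine-like cells. It had 214 and 428 UMIs there, 51.5 and 59.2 CPM, a log2 ratio of 0.20 (-0.04 to 0.45), and was found in 13.9% and 19.8% of the cells. *Onecut2* was at 164 and 148 CPM, a ratio of 0.904 (0.821 to 0.997), in 42.1% and 46.2% of the cells. *Onecut1* (chr9:74861921-74891781, plus strand) overlaps *Gm20649* on the same strand, so its reads may be shared.

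*Onecut3* (chr10:80494835-80517276, plus strand) was rare, and 72 of its 117 UMIs in the humWT library and 81 of 199 in the humdG library lay in the amacrine-like class. Its level was 17.3 and 11.2 CPM, a log2 ratio of -0.63 (-1.10 to -0.15), from 26 and 48 cells. In humWT 1 cell held 15.3% of these UMIs. After thinning, the log2 ratio was 0.69 with an interval of -1.07 to 2.79, so the direction was not fixed at equal depth. It overlaps *2610034O05Rik* on the same strand.

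*Lhx1* (chr11:84518284-84525535, minus strand), the LIM-homeodomain factor that sets the position and form of horizontal cells, stood at 43.8 CPM in humWT (37.7 to 50.7) and 25.5 CPM in humdG (21.9 to 29.4), a log2 ratio of -0.78 (-1.09 to -0.48). The counts were almost equal, 182 and 184 UMIs, but they came from 27 of 606 humWT and 50 of 1037 humdG cells, which are 4.46% (2.96% to 6.42%) and 4.82% (3.60% to 6.31%) of the class. The intervals of these shares overlapped, and the positive cells held 6.74 UMIs each in humWT and 3.68 in humdG. Their depth differed as well, with medians of 10154 and 5803 UMIs, and their own level was 583 and 448 CPM. In humWT 1 cell held 18.1% of the *Lhx1* UMIs, and in humdG 1 held 11.4%. At 1000 UMIs per cell the log2 ratio was -0.86, with an interval of -1.94 to 0.21.

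*Prox1* (chr1:190118035-190170714, minus strand), a homeobox factor that drives progenitors to the horizontal fate and is kept in some amacrine cells, was at 97.2 and 83.2 CPM in amacrine-like cells, a log2 ratio of -0.23 (-0.41 to -0.04). It was found in 27.9% and 28.9% of the cells. Unlike *Lhx1* and *Onecut3*, it was also present in progenitor-like cells, at 66.8 and 60.1 CPM, and in muscle-like cells, at 37.9 and 49.0 CPM. In the gate on markers its log2 ratio in the class was 0.085, with an interval of -0.61 to 0.84. *Prox1* overlaps *Gm28172* and *Prox1os* on the other strand.

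Counted over the amacrine-like class, 4 of the 10 genes had a higher level in humdG, where 50.1% of the 14176 genes that reached 20 UMIs in this class did. None was at least 2-fold higher (2.17% of all genes were) and 1, *Lhx9*, was at least 2-fold lower (7.72% of all genes were). The median log2 ratio was -0.11 for the 10 genes and 0.00 for all genes. The summed level was 1077 CPM in humWT and 1251 CPM in humdG, a log2 ratio of 0.22 (0.16 to 0.27), and in the gate on markers the interval held 0 (-0.04 to 0.34). That sum rested on *Tfap2b*, and the other 9 genes together were at 712 and 666 CPM, a log2 ratio of -0.10 (-0.16 to -0.03). The plot of ratios by class sets these values beside the other retinal classes.

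**Figure D2:**
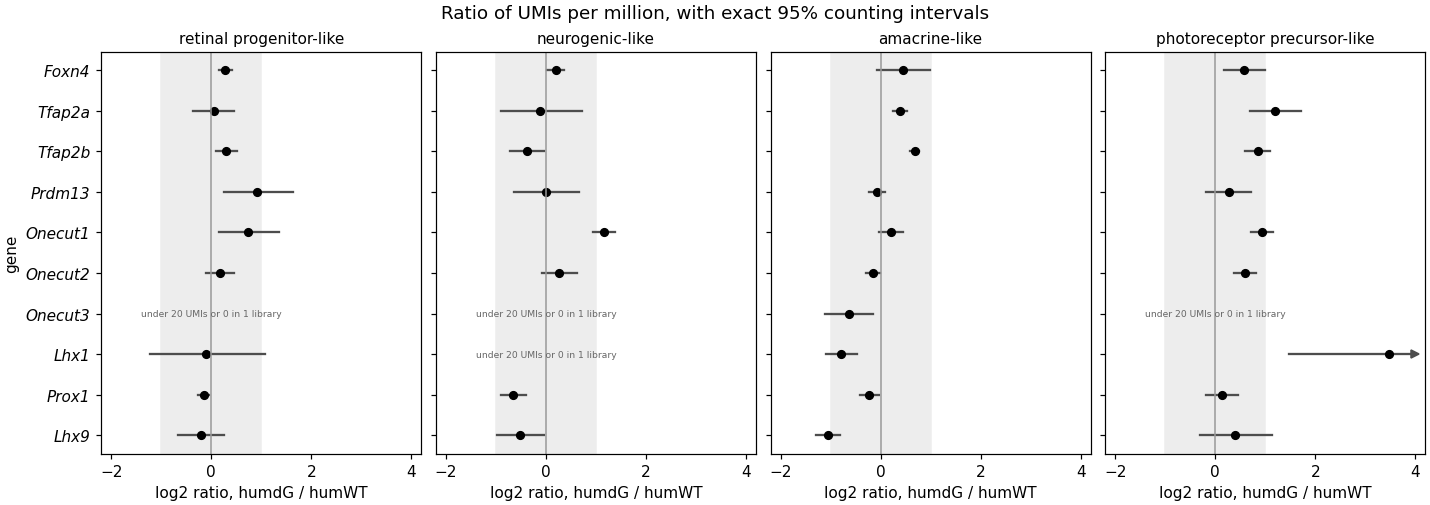
Log2 ratio of humdG to humWT for each of the 10 genes in 4 retinal classes, 1 library per genotype, with exact conditional binomial intervals for counting error; the grey band marks ratios within 2-fold. In amacrine-like cells Tfap2b is at 0.68 and Lhx9 at -1.05, in neurogenic-like cells Onecut1 is at 1.16, and in photoreceptor precursor-like cells every gene drawn lies above 0.

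In neurogenic-like cells the gene that stood apart was *Onecut1*. These were 377 humWT and 707 humdG cells with similar depth (medians 8485 and 9136 UMIs). *Onecut1* had 204 UMIs in humWT and 870 in humdG, or 61.8 (53.6 to 70.8) and 138 CPM (129 to 147), a log2 ratio of 1.16 (0.94 to 1.39). It was found in 31.8% and 47.8% of the cells, and after thinning in 5.32% and 13.9%. The red blood cell-like level was 4.42 and 9.62 CPM. Of the 8 members with at least 20 UMIs, *Onecut1* was the 1 at least 2-fold higher in humdG, where 1.96% of 12984 genes were, and none was at least 2-fold lower, where 4.46% were.

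In the same neurogenic-like cells *Prox1* was at 72.4 CPM in humWT and 46.1 CPM in humdG, a log2 ratio of -0.65 (-0.90 to -0.40). *Tfap2b* was at 37.8 and 29.2 CPM (log2 ratio -0.38, -0.71 to -0.04), although in the red blood cell-like cells it was at 25.7 and 40.2 CPM, so the humdG level was not above the background. *Lhx9* was at 20.3 and 14.3 CPM, a log2 ratio of -0.51 (-0.98 to -0.03). *Atoh7*, the basic helix-loop-helix factor of early-born retinal neurons, was at 1230 and 2151 CPM and its log2 ratio was 0.81. *Isl1*, a LIM-homeodomain factor of ganglion and starburst amacrine cells, was at 1.82 and 10.3 CPM. Its log2 ratio was 2.50 (1.30 to 4.00), from only 6 UMIs in humWT and 65 in humdG. The part of these differences within the class in the *Onecut1* level was not tested.

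Progenitor-like cells held 9 members with at least 20 UMIs, of which none was at least 2-fold higher or lower in humdG (1.97% and 5.64% of 16055 genes were). The sparse amacrine genes were at low levels there. *Prdm13* was at 1.62 and 3.07 CPM and *Onecut1* at 2.13 and 3.56 CPM, and both were under the red blood cell-like levels of the same library (5.31 and 6.12 CPM, and 4.42 and 9.62 CPM). *Tfap2a*, at 5.24 and 5.42 CPM, was not clear of that background either (8.85 and 5.25 CPM). *Prox1*, with 1032 and 1586 UMIs, had a log2 ratio of -0.15 (-0.26 to -0.04).

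In photoreceptor precursor-like cells all 10 genes had a higher level in humdG, and for 7 the interval of the ratio lay above 0. The share of all genes with such an interval was not computed, so the 7 cannot be set against it. Of the 14093 genes with at least 20 UMIs in this class, 56.6% were higher, with a median log2 ratio of 0.05 beside 0.59 for the 9 members that reached this count. Of these 9, 2 were at least 2-fold higher (2.16% of all genes were) and none at least 2-fold lower (5.29% were). *Onecut1*, which is also active in early cone and horizontal precursors, was at 42.2 CPM in humWT and 80.6 CPM in humdG (log2 ratio 0.94, 0.71 to 1.16) and *Onecut2* at 50.8 and 76.6 CPM (0.59, 0.38 to 0.81). *Tfap2a* was at 8.15 and 18.7 CPM, a log2 ratio of 1.19 (0.70 to 1.71). *Lhx1* had 2 and 25 UMIs, of which 40.0% in humdG came from 1 cell, and *Onecut3* had 0 and 11. The red blood cell-like background was higher in humdG for 7 of the 10 genes, with *Foxn4* at 2.21 and 16.6 CPM against 13.7 and 20.5 CPM in photoreceptor precursor-like cells, and its part in these ratios was not tested.

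This direction was not particular to photoreceptor precursor-like cells. All 10 genes were also higher in humdG in cartilage-like cells, with 7 intervals above 0, and in the largest unnamed cluster, with 8. The share of all genes higher in those classes was not computed. All 10 were higher as well in a small unnamed cluster of deep cells, 237 in humWT and 99 in humdG. Its medians were 12286 and 27123 UMIs, and 64.8% of the 14820 genes with at least 20 UMIs there were higher in humdG. It had raised markers of photoreceptor precursors, amacrine, horizontal and retinal ganglion cells and muscle together. Its members' sum was 249 CPM in humWT and 824 CPM in humdG. The difference in depth within the cluster stands beside this ratio, and whether its barcodes hold more than 1 cell was not tested.

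Most amacrine-like cells had UMIs of more than 1 of the factors. In humWT 67.5% of the cells (63.6% to 71.2%) and in humdG 75.0% (72.3% to 77.6%) had UMIs of 2 or more members, and up to 8 were found in 1 cell. The shares were 57.3% and 59.5% in neurogenic-like cells, 26.0% and 30.6% in progenitor-like cells, 24.7% and 37.6% in photoreceptor precursor-like cells, and 3.16% and 4.26% in red blood cell-like cells. Since such shares depend on depth, cells were also thinned to 1000 UMIs, which left 18.0% and 22.3% of the amacrine-like cells with 2 or more. The neurogenic-like class then had 4.26% in humWT and 5.94% in humdG. For photoreceptor precursor-like cells the thinned shares were 1.43% and 3.21%, and for progenitor-like cells 0.91% and 1.50%. At equal depth the amacrine-like share was thus well above those of the other named retinal classes in both libraries.

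Which factors met in the same cell was asked by comparing the number of cells with both genes of a pair with the number expected if each gene were spread independently within 10 bins of depth. Of the 45 pairs in amacrine-like cells, 9 lay above the expectation in both libraries and 1 below, with no pair in opposite directions, as the plot of co-detection shows. Of these 9 pairs, 8 join *Onecut1*, *Onecut2*, *Onecut3*, *Lhx1* and *Prox1* with one another. In neurogenic-like and progenitor-like cells no pair lay above or below in both libraries.

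**Figure D3:**
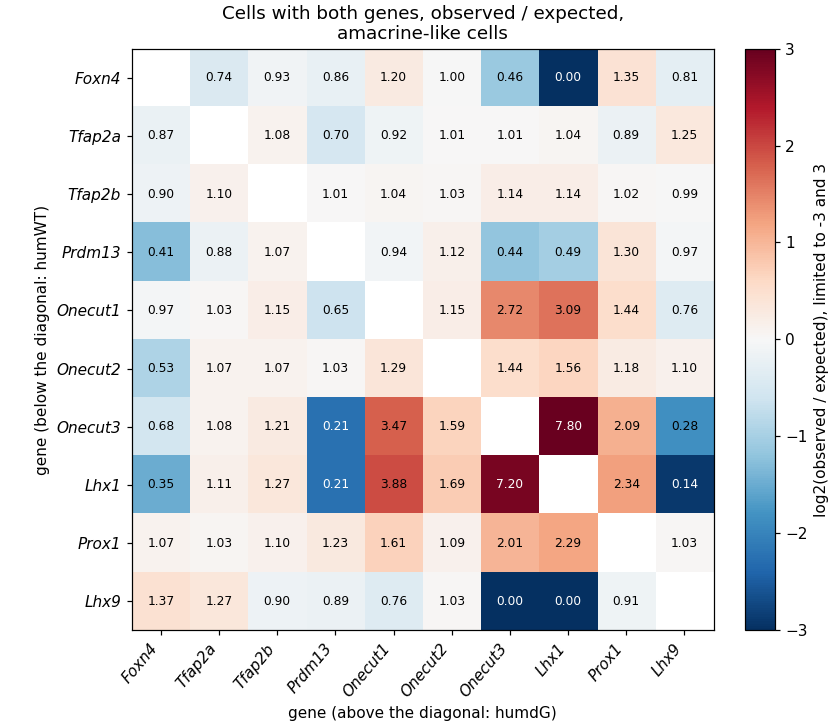
Observed over expected number of cells with both genes of a pair in amacrine-like cells of the humWT and the humdG library (expected within 10 bins of UMIs per cell), with humWT below and humdG above the diagonal and the colour showing the log2 of the ratio. Onecut3 with Lhx1 is the highest pair, at 7.20 in humWT and 7.80 in humdG, and Lhx1 with Lhx9 is at 0.00 and 0.14.

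The closest pair was *Onecut3* with *Lhx1*. Both were found in 22 humWT cells where 3.06 were expected, a ratio of 7.20 (4.51 to 10.9), and in 28 humdG cells where 3.59 were expected, a ratio of 7.80 (5.19 to 11.3). *Onecut1* was found in 26 of the 27 *Lhx1* cells of humWT and 39 of the 50 of humdG, with ratios of 3.88 (2.54 to 5.69) and 3.09 (2.20 to 4.22). *Prox1* was found in 25 and 39 of these cells, with ratios of 2.29 and 2.34.

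*Lhx1* and *Lhx9*, which are paralogous LIM-homeodomain factors, were apart. They met in 0 humWT cells where 8.10 were expected (upper limit of the ratio 0.46) and in 1 humdG cell where 7.39 were expected (0.14, 0.00 to 0.75). *Lhx9* instead met *Tfap2a*, in 94 and 105 cells with ratios of 1.27 (1.03 to 1.55) and 1.25 (1.02 to 1.51). *Prdm13* and *Lhx1* met in 2 humWT cells where 9.38 were expected and in 6 humdG cells where 12.2 were expected, with an upper limit of 0.77 in humWT and 1.07 in humdG.

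The *Lhx1*-positive cells were therefore compared with the other cells of the class in each library. The positive cells were deeper (10154 against 5281 UMIs in humWT and 5803 against 4968 in humdG), so the values are CPM within each set. *Onecut3* was at 212 against 1.56 CPM in humWT and at 134 against 3.82 CPM in humdG, and *Onecut1* at 430 against 20.8 CPM and 421 against 37.4 CPM. *Prox1* was at 474 against 66.6 CPM in humWT and 424 against 62.7 CPM in humdG. All 3 of these factors were higher in *Lhx1*-positive cells of both libraries.

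The same cells held genes that the horizontal cell list names. The calcium-binding protein gene *Calb1* was 37.0 times higher in humWT and 14.4 times in humdG, from 15 and 13 UMIs in the positive cells, and the spacing receptor gene *Megf11* 15.6 and 8.97 times higher. *Sall3*, a zinc-finger factor of horizontal cells, was 53.4 and 64.7 times higher. The neighbouring gene *Lhx1os* was at 474 against 1.82 CPM and 317 against 3.96 CPM, and further leading genes were *Gm16551*, *Alk*, *Gm32647*, *Sez6* and *Cacna2d3*. The neurofilament gene *Nefm*, which is on the retinal ganglion cell list, was also 21.8 and 8.63 times higher.

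Several amacrine genes were lower in the *Lhx1*-positive cells, while *Gad1*, which encodes a GABA-synthesising enzyme, was higher (ratios of 2.83 and 1.59). *Ptf1a* was at 3.21 against 194 CPM in humWT and 43.8 against 265 CPM in humdG, and *Meis2* at 38.5 against 1608 CPM and 209 against 1329 CPM. *Prdm13* was at 6.41 against 121 CPM and 31.7 against 112 CPM. In the *Lhx1*-positive cells of humWT these levels came from 1 *Ptf1a*, 12 *Meis2* and 2 *Prdm13* UMIs, and in humdG from 18, 86 and 13. *Tfap2b* was at 712 against 337 CPM in humWT and 945 against 563 CPM in humdG, so it was higher in the *Lhx1*-positive cells of both libraries, and *Tfap2a* was not (119 against 138 CPM and 146 against 181 CPM).

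**Figure D4:**
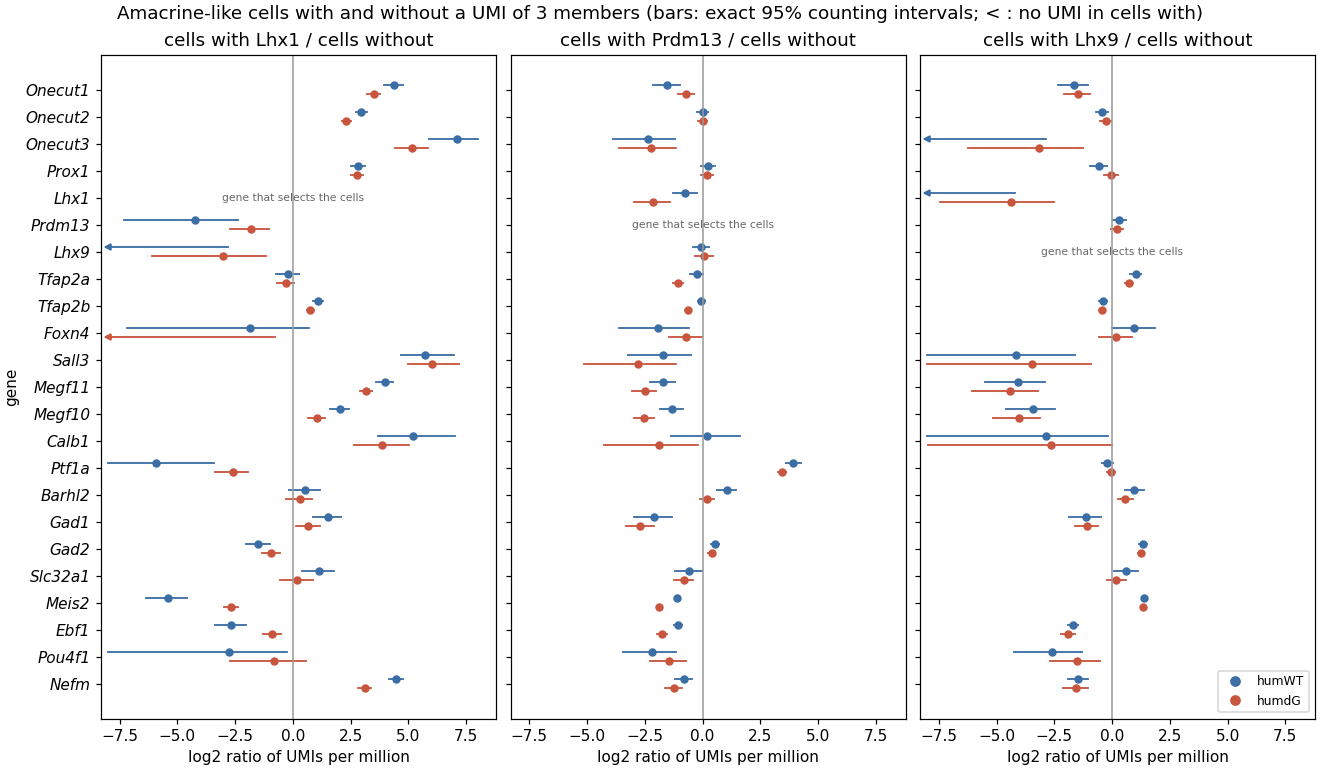
Level of named genes in amacrine-like cells with a UMI of Lhx1, Prdm13 or Lhx9 relative to the other cells of the class (x axis: log2 of the ratio, bars for exact counting intervals, arrows where the positive cells had no UMI), for the humWT and the humdG library. Before the log2, the ratio of Onecut3 in Lhx1 cells is 136 and 35.1, Ptf1a in Prdm13 cells at 15.1 and 10.8, and Meis2 in Lhx9 cells at 2.60 and 2.53.

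The class was also split by *Prdm13*. Cells with this gene, 151 in humWT and 264 in humdG, had medians of 8355 and 8290.5 UMIs against 4688 and 4396 in the other cells. *Ptf1a* was at 491 against 32.6 CPM in humWT and 675 against 62.4 CPM in humdG, ratios of 15.1 (12.1 to 19.0) and 10.8 (9.58 to 12.3). After *Prdm13* itself and *Krt73*, *Ptf1a* was the next leading gene of these cells, followed by *Cldn5*, *Ppp1r14a*, *Gamt* and *Gadd45a*. Of the genes for GABA-synthesising enzymes, *Gad1* was lower in them, at ratios of 0.24 and 0.15, and *Gad2* higher at 1.45 and 1.31. *Onecut2* was not set apart, with ratios of 1.00 and 1.01.

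Cells with *Lhx9*, 141 in humWT and 150 in humdG, had higher *Meis2* (ratios 2.60 and 2.53), a homeobox gene of GABAergic amacrine cells, and higher *Gad2* (2.54 and 2.40). *Megf11* was at 0.06 and 0.05, and *Onecut3* at 0 UMIs in humWT and 2 in humdG. *Ptf1a* was at 0.87 and 0.96, with intervals that held 1 in both libraries. Of the amacrine-like cells, 45.7% in humWT and 39.6% in humdG had a UMI of *Lhx1*, *Prdm13* or *Lhx9*, and of those 15.2% and 12.7% had more than 1 of the 3. Among these 3 genes, only *Lhx1* with *Lhx9* lay below the expectation in both libraries. Cells with *Prdm13* and cells with *Lhx9* are thus not shown to be separate sets.

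To show the genome next to these genes, the 250 bases before the RefSeq start (GRCm38.p6) are given for *Lhx1*, *Onecut1* and *Prox1*, which met in the same cells. They are also given for *Prdm13* and *Lhx9*, by which the class was split above. Of the 2 *Prox1* windows in RefSeq, the one farther upstream is shown. Each runs 5′ to 3′ on the strand of the gene, and capitals mark E-boxes (CANNTG, read on both strands), the motif bound by basic helix-loop-helix factors such as PTF1A and ATOH7.
Lhx1 (chr11:84525535-84525784, minus strand): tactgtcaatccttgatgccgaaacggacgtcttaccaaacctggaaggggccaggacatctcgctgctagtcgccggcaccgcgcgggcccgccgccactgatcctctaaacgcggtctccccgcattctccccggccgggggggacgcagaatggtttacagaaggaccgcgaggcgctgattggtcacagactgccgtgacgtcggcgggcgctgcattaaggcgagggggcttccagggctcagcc
Onecut1 (chr9:74861671-74861920, plus strand): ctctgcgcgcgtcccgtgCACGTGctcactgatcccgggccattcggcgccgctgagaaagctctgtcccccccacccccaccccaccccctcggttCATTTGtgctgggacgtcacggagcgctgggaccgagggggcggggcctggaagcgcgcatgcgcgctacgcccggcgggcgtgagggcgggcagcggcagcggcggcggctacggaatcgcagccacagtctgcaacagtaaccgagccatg
Prox1 (chr1:190170828-190171077, minus strand): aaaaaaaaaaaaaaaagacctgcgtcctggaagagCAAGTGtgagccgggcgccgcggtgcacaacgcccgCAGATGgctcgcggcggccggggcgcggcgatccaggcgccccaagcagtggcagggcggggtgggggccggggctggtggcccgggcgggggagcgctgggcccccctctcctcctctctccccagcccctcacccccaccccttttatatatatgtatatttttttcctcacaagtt
Prdm13 (chr4:21685964-21686213, minus strand): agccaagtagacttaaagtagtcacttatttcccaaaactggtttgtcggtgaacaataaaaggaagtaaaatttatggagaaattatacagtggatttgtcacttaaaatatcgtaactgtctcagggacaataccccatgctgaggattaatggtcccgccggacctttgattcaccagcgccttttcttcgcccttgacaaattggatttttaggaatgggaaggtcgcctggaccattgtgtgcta
Lhx9 (chr1:138842445-138842694, minus strand): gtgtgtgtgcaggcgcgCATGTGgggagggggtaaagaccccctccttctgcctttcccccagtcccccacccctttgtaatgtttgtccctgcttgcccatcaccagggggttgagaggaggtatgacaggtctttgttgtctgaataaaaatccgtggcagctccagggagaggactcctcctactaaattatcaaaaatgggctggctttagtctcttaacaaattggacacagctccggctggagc

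E-boxes were found in the windows of *Onecut1* (CACGTG 232 and CATTTG 153 bases before the start), the printed *Prox1* window (CAAGTG 215 and CAGATG 179 bases before) and *Lhx9* (CATGTG 233 bases before), and none in those of *Lhx1* and *Prdm13*. Over all windows of the members, 10 in number for 8 genes, 4 held an E-box, beside 66.2% of 32851 promoter windows of the same length. The AP-2 motif GCCNNNGGC was in 0 of the 10 (13.7% of all), the ONECUT motif ATTGAT in 0 (6.72%), its variant ATCGAT in 0 (0.728%) and the homeodomain motif TAATTA in 1, that of *Tfap2a* (4.84%). The printed windows of *Lhx1*, *Onecut1* and *Prox1* had 64.8%, 71.6% and 64.8% GC and held 26, 31 and 20 CpG, beside medians of 52.4% and 6 over all promoters, whereas the *Prdm13* window had 41.6% GC and 7 CpG and that of *Lhx9* 53.6% and 4. The other *Prox1* window (chr1:190169516-190169765, minus strand) had 56.0% GC, 11 CpG and 0 E-boxes. A match of letters does not show binding. The start used for *Lhx9* lies inside the gene as annotated by GENCODE (chr1:138825186-138848577, minus strand).

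In neurogenic-like cells the split by *Foxn4* and by *Onecut1* showed different partners. Cells with *Foxn4*, 186 in humWT and 355 in humdG, were deeper than the others (medians 10695 against 6550 UMIs, and 10997 against 7197) and had *Neurog2* at 1058 against 416 CPM and 1393 against 708 CPM, ratios of 2.55 and 1.97. In the same cells *Ptf1a* was lower (0.47 and 0.13), as were *Neurod4* (0.25 and 0.35) and *Atoh7* (0.86 and 0.71). Cells with *Onecut1*, 120 and 338, had *Atoh7* at 1556 against 1028 CPM and 2496 against 1714 CPM, ratios of 1.51 and 1.46. *Ptf1a* differed in direction here, at 83.0 against 55.5 CPM in humWT and 58.4 against 130 CPM in humdG. *Foxn4* and *Onecut1* met in 64 and 188 cells where 71.2 and 191 were expected.

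The wider network was described by 3 lists. Of 18 upstream and partner transcription factors, 13 were higher and 5 lower in humdG amacrine-like cells (median log2 ratio 0.30), and 1 was at least 2-fold higher, beside 50.1% and 2.17% of all genes. That gene was *Isl1*, at 57.3 and 195 CPM (log2 ratio 1.77, 1.57 to 1.97), and the lowest was *Sall3*, at 11.6 and 6.78 CPM (-0.77, -1.37 to -0.16). *Ptf1a*, upstream of *Prdm13*, was at 179 and 252 CPM, a log2 ratio of 0.49 (0.37 to 0.62), while *Prdm13* had -0.07. In neurogenic-like cells 12 were higher and 5 lower (median 0.15), where 43.7% of all genes were higher. In photoreceptor precursor-like cells 17 were higher and 1 lower (median 0.33), where 56.6% of all genes were higher.

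In progenitor-like cells 16 of the 18 were higher and 2 lower in humdG (median 0.45), and 5 were at least 2-fold higher. Of all 16055 genes 45.0% were higher (median -0.03) and 1.97% at least 2-fold higher. The 5 factors were *Atoh7* at 12.7 and 39.8 CPM (log2 ratio 1.65), *Ptf1a* at 2.39 and 6.71 CPM (1.49), *Isl1* at 2.91 and 7.85 CPM (1.43), *Neurog2* at 21.6 and 55.0 CPM (1.35) and *Nr2f2* at 21.6 and 50.3 CPM (1.22). None of the 10 members passed that fold in these cells. The summed neurogenic markers, of which *Atoh7* and *Neurog2* are 2, stood at 147 and 296 CPM in red blood cell-like cells. *Ptf1a* was found in 35 of 1766 humWT and 156 of 3012 humdG progenitor-like cells. Among red blood cell-like cells it was found in 14 of 506 and 15 of 258, so its progenitor-like level was not clear of the background. The part of this free RNA in the ratios was not tested.

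Of 9 amacrine transmitter and synthesis genes, 7 had at least 20 UMIs in amacrine-like cells, and 5 were higher and 2 lower in humdG (median 0.28). Of all 14176 genes with this count in the class, 50.1% were higher (median 0.00). *Slc18a3*, the vesicular acetylcholine transporter of starburst amacrine cells, was the highest in ratio (3.13 and 5.95 CPM, 0.93, 0.01 to 1.95) and the glycine transporter *Slc6a9* the lowest (16.1 and 9.41 CPM, -0.78, -1.28 to -0.27). Of 6 horizontal cell genes, 5 had at least 20 UMIs, and 3 were higher and 2 lower (median 0.02), beside the same 50.1% of all genes. *Megf10* was highest (64.0 and 91.1 CPM, 0.51, 0.30 to 0.72) and *Calb1* lowest (4.81 and 3.88 CPM, -0.31, -1.19 to 0.59).

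Genes with the most similar placement over the 22 clusters were found by Pearson correlation of log2(CPM + 10), both libraries summed, among 15885 genes with at least 200 UMIs. The clusters share their libraries and differ in depth, so the values are a description. *Prdm13* was most like *Scrt1* (r = 0.99), *Krt73* and *Barhl2*, *Foxn4* most like *Fezf2* (0.95), *Ccdc60* and *Rtkn2*, and *Lhx9* most like *Oprm1* (0.95), *Glra3* and *Slco5a1*. For *Onecut1* the nearest were *Srrm4* (0.97), *Phf21b* and *Unc13a*, for *Onecut2* *Celf3* (0.98), *Bsn* and *Myt1*, and for *Onecut3* *E130008D07Rik* (0.98), *Pmfbp1* and *Adgra1*. *Tfap2b* was nearest to *Gm32647* (0.89) and then *Tenm1*. For 3 members the nearest gene lies beside or across them, namely *Lhx1os* for *Lhx1* (0.99, then *Klhl35* and *Gm38534*), *Prox1os* for *Prox1* (0.92, then *Fsd1l* and *Tfrc*) and *Gm26688* for *Tfap2a* (0.93, then *Epb41l4a* and *Fbxo32*).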

How the data were processed

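Eye cups of E17.5 mice were profiled with 10x Genomics 3′ single-cell libraries, 1 for each genotype. The authors counted reads with Cell Ranger 7.1.0 and list Seurat 4.1.1 and the mm10 build in their processing notes, and they deposited UMI counts that were not normalized, for barcodes already called as cells. Whether reads in introns were counted is not given in the sources used here. The 10 genes and all lists were chosen with earlier results of these data known.

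Filters were over 500 genes per barcode and a mitochondrial share below 15%. Scrublet (scanpy 1.11.5, 30 components) called 1 and 0 doublets, so a fixed 5% of each library was removed by score. Cells were clustered in Seurat 5.3.0 (R 4.3.3) after canonical correlation integration over 20 dimensions with 2000 variable genes, the 10 genes left out, at a resolution of 0.5. A cluster was named when at least 3 markers of a class were raised 2-fold over all other cells (10 CPM added) and found in 10% of its cells. In addition, at least 1 marker had to be among its 20 leading genes, or most of the class's markers had to be raised. A limit on the markers of other classes was set after the clusters were seen. Mesenchyme-like and melanocyte-like cells were not compared between genotypes. No barcodes were removed for sharing a sequence, of which the libraries had 102 in common before filtering.

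A level is the sum of a gene's UMIs in a class as CPM. Sums have exact Poisson, shares Clopper-Pearson and ratios exact conditional binomial intervals at 95% (Python 3.11.15, scipy 1.17.1, numpy 2.4.6, pandas 2.3.3). They leave out variation between animals and between dissociations. No test between genotypes was possible with 1 library each. Shares were also computed with each cell thinned to 1000 UMIs, shallower cells left out. Co-detection was set against the number of cells expected within 10 bins of depth. The interval code and the co-detection code were tested on simulated data. Named genes were the 10 members, the highest and lowest ratios of each list among genes with at least 20 UMIs, and the 3 genes most alike in placement to each member, among those with at least 200 UMIs. Genes given as leading or set apart in cells split by a member were chosen after their values were seen, as were the 5 factors named in progenitor-like cells and the factors named beside members in neurogenic-like cells. Promoter windows and gene positions came from RefSeq (GRCm38.p6) and GENCODE M21. Matplotlib 3.10.9 drew the figures. The closing section gives the values that moved under an alternative. A marker gate without the limit on red blood cell markers and all the alternatives for co-detection were added after seeing the data. A few genes are not reported here.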

Additional observations from a re-analysis of the deposited data

Results flagged for a closer look

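For 3 of the genes the ratio of humdG to humWT ran in opposite directions in different retinal classes, with intervals on either side of 0, and the difference between classes was not tested. *Tfap2b* had log2 ratios of 0.30 in progenitor-like cells, -0.38 in neurogenic-like cells, 0.68 in amacrine-like cells and 0.85 in photoreceptor precursor-like cells. Its levels in progenitor-like cells (18.5 and 22.8 CPM) and in humdG neurogenic-like cells (29.2 CPM) were below those in red blood cell-like cells (25.7 and 40.2 CPM), so these directions rest on levels not above the background. *Onecut2* had -0.14 in amacrine-like cells and 0.59 in photoreceptor precursor-like cells. *Lhx1* had -0.78 in amacrine-like cells and 3.47 in photoreceptor precursor-like cells, the second from 2 and 25 UMIs. Each genotype is 1 library, so these are descriptions of 2 libraries.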

How the results depend on the processing

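No paired analysis was possible because each genotype is 1 library, and leaving out a replicate was not possible for the same reason. Intervals cover counting error only, low counts limit *Onecut3*, *Lhx1* and *Foxn4* in amacrine-like cells, and the libraries differ in depth and in free RNA. The planned marker gate left 1 cell, because red blood cell transcripts were found in nearly every cell, so it was run without its limit on red blood cell markers (31 humWT and 78 humdG cells), an alternative chosen after seeing the data. Subtraction of background and the other denominator do not apply to shares of cells.

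The summed log2 ratio was 0.16 with finer clusters (resolution 1.0), 0.15 when the libraries were merged and 0.14 in the gate, where the interval of -0.04 to 0.34 held 0. The number of members higher in humdG was 2 in the gate, 3 after background subtraction and 6 after thinning, beside 4 otherwise. With under 10% mitochondrial UMIs the summed log2 ratio was 0.21 and each share given here stayed within its interval. The share of member UMIs in the class (humWT and humdG) was 21.8% and 26.2% with finer clusters, 21.0% and 26.1% when merged, 1.50% and 3.38% in the gate, 24.6% and 31.2% with over 1000 genes per cell, 36.9% and 38.3% after background subtraction, and 19.9% and 20.5% after thinning. It was 24.2% in humWT when doublet removal was raised to 10% of cells and 27.1% in humdG without the 1% of deepest cells. The share of cells with 2 or more members was 72.5% and 79.8% with finer clusters, 78.3% and 80.6% when merged, 80.8% in the humdG gate, and 18.0% and 22.3% after thinning. Under the alternatives run for co-detection, 7 to 9 pairs lay above the expectation in both libraries.

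Of 99 values for single members under an alternative, 93 kept their direction. *Foxn4* after background subtraction is not among the 99. Its humdG level of 14.8 CPM was below the 16.6 CPM of red blood cell-like cells, so nothing remained and no ratio could be given. The direction turned in the gate for *Tfap2a* (-0.35), *Prox1* (0.085), *Foxn4* (-2.19) and *Onecut1* (-0.49) and after thinning for *Onecut3* (0.69) and *Prdm13* (0.33). *Lhx1* was at -0.05 in the gate. The cause of these shifts was not tested.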
